A study of Rattus norvegicus with 30 samples.

Results

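Expression of 46 extracellular matrix genes was followed in the hearts of male and female F344 rats of 3 ages: the collagen chains, laminins, nidogens, perlecan, small leucine-rich proteoglycans, elastic fibre proteins and adhesive glycoproteins named in a list of symbols. A gene was taken up when its symbol named a row of the authors' tables of 8, 21 or 78 weeks, which 42 of the 46 symbols did. Col6a3, Col12a1, Hspg2 and Thbs1 did not, and they were read from the scanner files, Col6a3 and Hspg2 under older names. All 46 genes have a probe among the 41012 on the array. The brightest probe stood for a gene, and 41 of the 46 passed the requirement of a signal well above background on at least 15 of the 30 arrays, as did 20809 of all probes, which stand for 17583 genes.

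The study compared the sexes in F344 rats, an inbred Fischer strain kept in 1 breeding colony, at 8 weeks (young), 21 weeks (adult) and 78 weeks (old), with 5 females and 5 males at each age and 1 array per heart. None of the rats was treated, and all were given the NIH-31 diet, so sex and age are what the labels vary. Whole heart was used, and a lower level can therefore come from fewer cells of a type or from less RNA per cell, which cannot be told apart. A level below is the log2 of the background-subtracted, 1-colour signal of a probe relative to the 75th percentile of its array, so that 0 is the signal of that percentile and 1 unit is a doubling of signal. Levels of different genes come from different probes and are not set against each other.

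Collagens are trimers of alpha chains that are secreted with propeptides, trimmed, and, in the fibrillar types I, III and V, assembled into the fibrils that carry tension between muscle bundles. Type IV collagen forms a sheet-like network with laminins, nidogens and perlecan, the basement membrane that wraps cardiomyocytes and capillaries. The small leucine-rich proteoglycans bind to collagen fibrils and regulate their spacing and growth, while adhesive glycoproteins such as fibronectin link cells to the matrix.

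The 60-base probes behind the fibrillar chains and behind the small proteoglycans show what was measured. The probes printed for Col3a1, Lum and Dcn are the brightest of these genes, which stand for them below, and those of Col1a1 and Col5a2 are other probes of theirs (differences of -1.70 and -1.17 between 78 and 8 weeks, in the comparison described below). Those of Col1a1, Col3a1 and Col5a2 lie in related stretches near the 3′ end of the coding sequence, and those of Lum and Dcn each lie in the part that codes for leucine-rich repeats. Capitals mark the longest run of bases that is common to the probes of a set, which has 8 bases in the 3 collagen probes and 12 in the 2 proteoglycan probes. Positions are those given in the scanner files (build rn3): chr10:83652273-83652332 (plus strand) for Col1a1, chr9:44318879-44318938 (plus) for Col3a1, chr9:44376974-44377033 (minus) for Col5a2, chr7:35106680-35106739 (plus) for Lum and chr7:35057602-35061403 (plus) for Dcn. The Col3a1 and Col5a2 probes share a run of 16 bases.
Col1a1: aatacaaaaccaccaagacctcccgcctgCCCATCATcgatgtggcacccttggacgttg
Col3a1: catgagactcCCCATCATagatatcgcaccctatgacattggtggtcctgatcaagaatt
Col5a2: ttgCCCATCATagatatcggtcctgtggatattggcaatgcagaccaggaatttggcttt
Lum: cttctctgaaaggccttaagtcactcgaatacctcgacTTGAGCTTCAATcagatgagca
Dcn: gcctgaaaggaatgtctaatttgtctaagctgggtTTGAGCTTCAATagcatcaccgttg

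Before the results, 3 features of the arrays bear on every value. The 78-week arrays labelled female replicate 2 and male replicate 3 showed Ddx3y and Eif2s3y, both on the Y chromosome, at the other sex's level. Whether genes passed between the sexes at 78 weeks is therefore given with and without this mismatched pair of arrays. Other values of 78 weeks include the pair unless stated. The 21-week arrays were dimmer in males, with a 75th percentile of 39.9 to 105 in males and 82.7 to 123 in females, against 83.5 to 171 in the other 4 groups. The study's methods place the ages in different batches, and 7 of the 8 slides held 1 age, so that age and batch cannot be told apart. One slide (2 arrays of 8 and 2 of 78 weeks) and the first of 2 scan days (10 arrays of 8 and 6 of 78 weeks) held both end ages, and differences within these are given beside those over all arrays. The heart label was met by the cardiomyocyte markers, all 8 of which passed the filter, with a summed linear signal of 2241 to 7139 times the 75th percentile over the 6 groups.

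In 78-week hearts 5 of 6 tested fibrillar chains and 3 of 4 basement membrane collagens were lower than in 8-week hearts, while 4 of 5 small leucine-rich proteoglycans showed no difference past the threshold. Of the 41 genes tested, 19 were lower and 2 were higher at 78 weeks (limma, both sexes averaged, Benjamini-Hochberg adjusted p under 0.05 over all probes), where 9.78% of all probes were lower and 9.52% were higher. The median difference of the 41 genes was -0.22, against 0.00 over all probes tested. Levels of the 10 rats of 8 weeks and the 10 of 78 weeks did not overlap for 13 genes that were lower at 78 weeks and for 1 that was higher, which held for 2.01% and 1.72% of all probes. All 21 genes kept the sign of their difference on the shared slide and within the first scan day. All 21 passed the threshold within that day, where 19% of all probes were lower and 18.3% were higher. These arrays are among those that selected the 21 genes, so their agreement is not an independent check. Within that day only the shared slide held both ages. With slide as a fixed term, which leaves the age difference to the 4 arrays of the shared slide, 11 of the 21 genes passed (2.51% of all probes did). The estimates on the shared slide were -1.44 for Col3a1, -1.28 for Col4a1, -0.99 for Sparc, 0.72 for Bgn and -0.67 for Col1a1, of which Col1a1 did not pass.

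**Figure D1:**
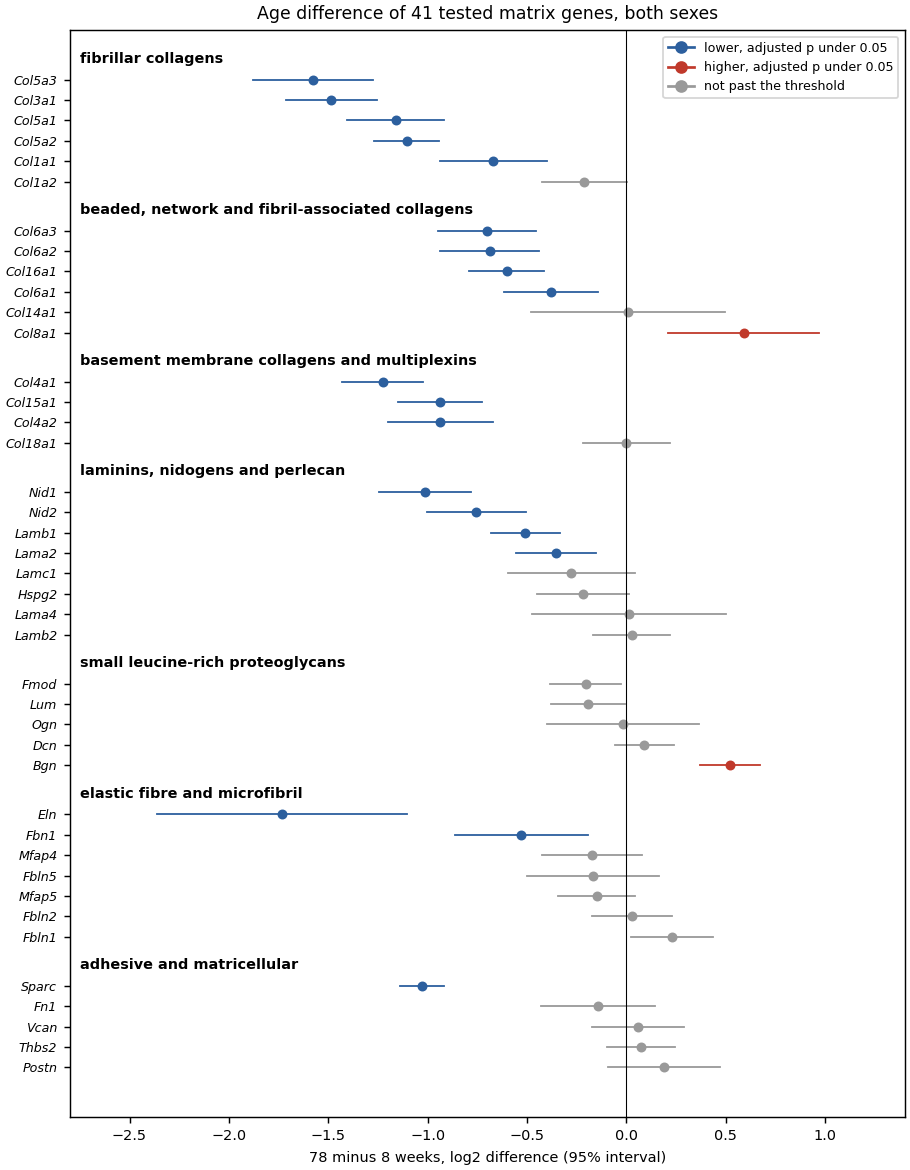
Difference between 78 and 8 weeks (log2, x axis) of the 41 tested genes by role; points are limma estimates over both sexes and lines their 95% intervals. The 19 genes in blue were lower and Col8a1 and Bgn, in red, were higher at 78 weeks; genes in grey did not pass the threshold.

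The fibrillar chains had the lowest median difference of the 7 role lists, -1.13 over 6 tested chains, of which 5 were lower at 78 weeks and Col1a2 did not pass. Col3a1, the chain of type III collagen, lay at 7.44 to 8.01 (median 7.70) in the 10 hearts of 8 weeks, at 5.83 to 6.45 (median 6.11) at 21 weeks and at 5.48 to 6.65 (median 6.23) at 78 weeks. Every heart of 8 weeks was above every heart of both later ages, and the difference between 78 and 8 weeks was -1.48 ± 0.11 SE, adjusted p = 3.07e-11, a 2.8-fold lower signal. It was -1.43 in females and -1.54 in males. Col5a1, Col5a2 and Col5a3, the chains of type V collagen, which starts fibril assembly, were all lower as well. Col5a2 lay at 3.63 to 4.07 (median 3.74) at 8 weeks and at 2.26 to 2.95 (median 2.71) at 78 weeks (-1.11 ± 0.08 SE, adjusted p = 1.49e-11). Col5a1 lay at 3.01 to 3.79 (median 3.32) at 8 weeks and at 1.74 to 2.65 (median 2.14) at 78 weeks (-1.16 ± 0.12 SE, adjusted p = 1.96e-08). Col5a3 lay at 2.05 to 2.56 (median 2.38) at 8 weeks and at -0.27 to 1.54 (median 0.80) at 78 weeks (-1.58 ± 0.15 SE, adjusted p = 3.39e-09), the lowest estimate among the fibrillar chains. None of the 3 type V chains had a heart of 78 weeks within the range of 8 weeks. Between 21 and 78 weeks no fibrillar chain passed the threshold, with differences between 0.08 and 0.22.

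Type I collagen depended on the probe. The brightest Col1a1 probe lay at 6.19 to 6.78 (median 6.48) at 8 weeks, 4.87 to 6.04 (median 5.73) at 21 weeks and 5.22 to 6.01 (median 5.91) at 78 weeks, without overlap between 8 and 78 weeks (-0.67 ± 0.13 SE, adjusted p = 0.000435). Of its other 3 probes, the 2 on the same strand differed by -1.73 and -1.70, over 2 times the estimate of the brightest probe on the log2 scale. For Col1a2, the partner chain, the brightest probe differed by -0.21 ± 0.11 SE, adjusted p = 0.169 while its other probe differed by -1.30 (adjusted p = 1.12e-08). The remaining Col1a1 probe lies on the opposite strand and differed by -1.33. The 3 same-strand Col1a1 probes and the second Col1a2 probe were thus lower at 78 weeks, by amounts that differed with the probe. After normexp background correction, an alternative to the scanner's own subtraction, the brightest Col1a1 probe did not pass (-1.16, adjusted p = 0.0679).

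**Figure D2:**
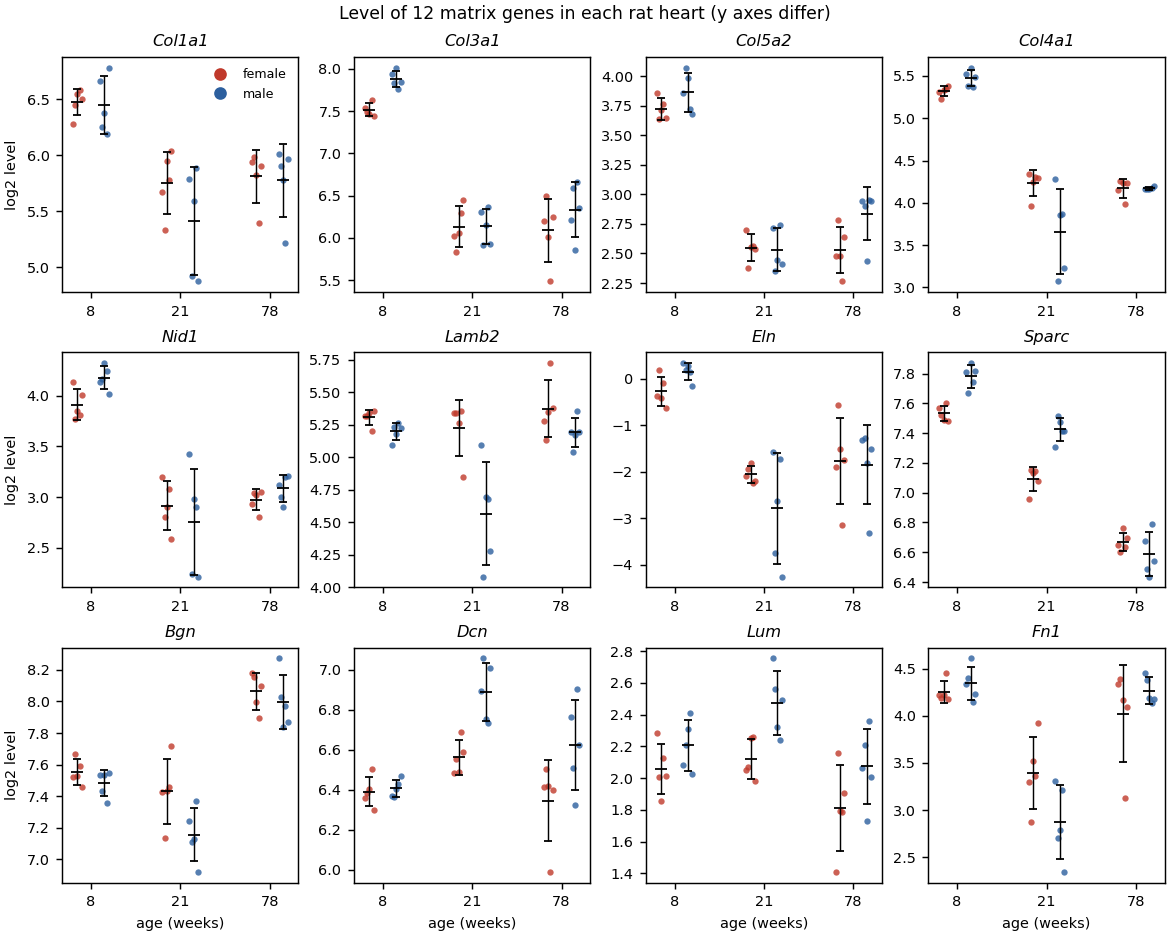
Level (log2 relative to the 75th percentile of the array, y axis, scaled for each gene) of 12 genes in each heart at 8, 21 and 78 weeks (x axis); points are rats, red for females and blue for males, and black bars show mean ± SD of 5 rats. Col1a1, Col3a1, Col5a2, Col4a1 and Nid1 stepped down after 8 weeks, Sparc at each age, and Bgn was highest at 78 weeks.

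Basement membrane collagens were also lower at 78 weeks, in 3 of the 4 tested genes (median -0.94). Col4a1, a chain of the type IV network, lay at 5.22 to 5.60 (median 5.38) at 8 weeks, 3.07 to 4.34 (median 4.11) at 21 weeks and 3.98 to 4.25 (median 4.17) at 78 weeks (-1.23 ± 0.10 SE, adjusted p = 2.06e-10). Its partner Col4a2 lay at 0.59 to 1.18 (median 0.86) at 8 weeks and at -0.47 to 0.56 (median -0.04) at 78 weeks (-0.94 ± 0.13 SE, adjusted p = 3.33e-06). Neither gene had overlapping levels at 8 and 78 weeks, and both passed with slide as a fixed term. Col15a1, a multiplexin of vascular and muscle basement membranes, lay at 4.43 to 4.77 (median 4.66) at 8 weeks and at 3.07 to 3.97 (median 3.75) at 78 weeks (-0.94 ± 0.10 SE, adjusted p = 7e-08), again without overlap. Col18a1, the multiplexin whose C-terminal fragment is endostatin, lay at 1.31 to 2.09 (median 1.82) and at 1.31 to 2.30 (median 1.77), and its difference of 0.00 had a 95% interval of -0.22 to 0.22. Col4a3, a chain of specialised basement membranes, was not tested: it was well above background on 9 of the 10 arrays of 8 weeks, on 1 of 10 at 21 weeks and on none of 10 at 78 weeks. Its level at 8 weeks was -3.89 to -2.48 (median -3.07), and the signal was at least 1.38-fold lower at 78 weeks, taking on each 78-week array the higher of the probe's own signal and the lowest signal well above background (adjusted p = 0.000987 by limma when all probes were tested). A second Col4a1 probe, near the 5′ end of the gene, did not follow the first and differed by 0.29 (adjusted p = 0.239).

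Among laminins, nidogens and perlecan, 4 of the 8 genes were lower at 78 weeks and 4 did not pass (median -0.32). Nid1, a linker between the laminin and type IV collagen networks, lay at 3.77 to 4.32 (median 4.08) at 8 weeks, 2.22 to 3.43 (median 2.90) at 21 weeks and 2.81 to 3.21 (median 3.03) at 78 weeks (-1.01 ± 0.11 SE, adjusted p = 8.09e-08). Nid2 lay at 0.38 to 0.98 (median 0.62) at 8 weeks and at -1.02 to 0.20 (median -0.02) at 78 weeks (-0.75 ± 0.12 SE, adjusted p = 3.38e-05). The laminin chain Lamb1 lay at 2.89 to 3.25 (median 3.09) at 8 weeks and at 2.36 to 2.79 (median 2.58) at 78 weeks (-0.51 ± 0.09 SE, adjusted p = 6.02e-05). In these 3 genes the hearts of 8 and 78 weeks did not overlap. Lama2, the alpha chain of the laminin of muscle, lay at 2.74 to 3.00 (median 2.86) and at 2.24 to 2.86 (median 2.49), with overlap (-0.35 ± 0.10 SE, adjusted p = 0.0107), and did not pass after normexp or with the mean of all its probes. Lamb2, the other beta chain, lay at 5.09 to 5.35 (median 5.25) and at 5.04 to 5.72 (median 5.24), and its difference of 0.03 had an interval of -0.17 to 0.22. Hspg2 (perlecan), Lamc1 and Lama4 had differences of -0.22, -0.28 and 0.01 that did not pass. Lama4 was well above background on 2 of the 10 arrays of 21 weeks.

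Small leucine-rich proteoglycans had a median difference of -0.02, with 1 of 5 genes higher, none lower and 4 not past the threshold. Bgn (biglycan) lay at 7.36 to 7.67 (median 7.53) at 8 weeks, 6.92 to 7.72 (median 7.31) at 21 weeks and 7.84 to 8.27 (median 8.01) at 78 weeks. Every 78-week heart was above every younger heart (0.52 ± 0.07 SE, adjusted p = 5.62e-06; 1.43-fold higher), and the difference was 0.52 in females and 0.52 in males. After normexp it was 0.05 and did not pass (adjusted p = 0.912). Dcn (decorin) lay at 6.30 to 6.50 (median 6.39) at 8 weeks and at 5.99 to 6.90 (median 6.46) at 78 weeks, with an interval of -0.06 to 0.24 for the difference. Lum (lumican) lay at 1.86 to 2.41 (median 2.10) and at 1.41 to 2.36 (median 1.96) (-0.19 ± 0.09 SE, adjusted p = 0.145). Fmod (fibromodulin) lay at 3.88 to 4.24 (median 4.00) and at 3.31 to 4.13 (median 3.92) (-0.21 ± 0.09 SE, adjusted p = 0.0996). Ogn (osteoglycin) differed by -0.02 with an interval of -0.40 to 0.37. The intervals of Dcn, Lum and Fmod lay within -0.38 to 0.24, and those of the brightest Col3a1 and Col4a1 probes lay below -1.02. This contrast did not hold for every collagen. Col1a2 and Col18a1 did not pass at their brightest probes (-0.21 and -0.0001), nor did the 5′ probe of Col4a1 (0.29).

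**Figure D3:**
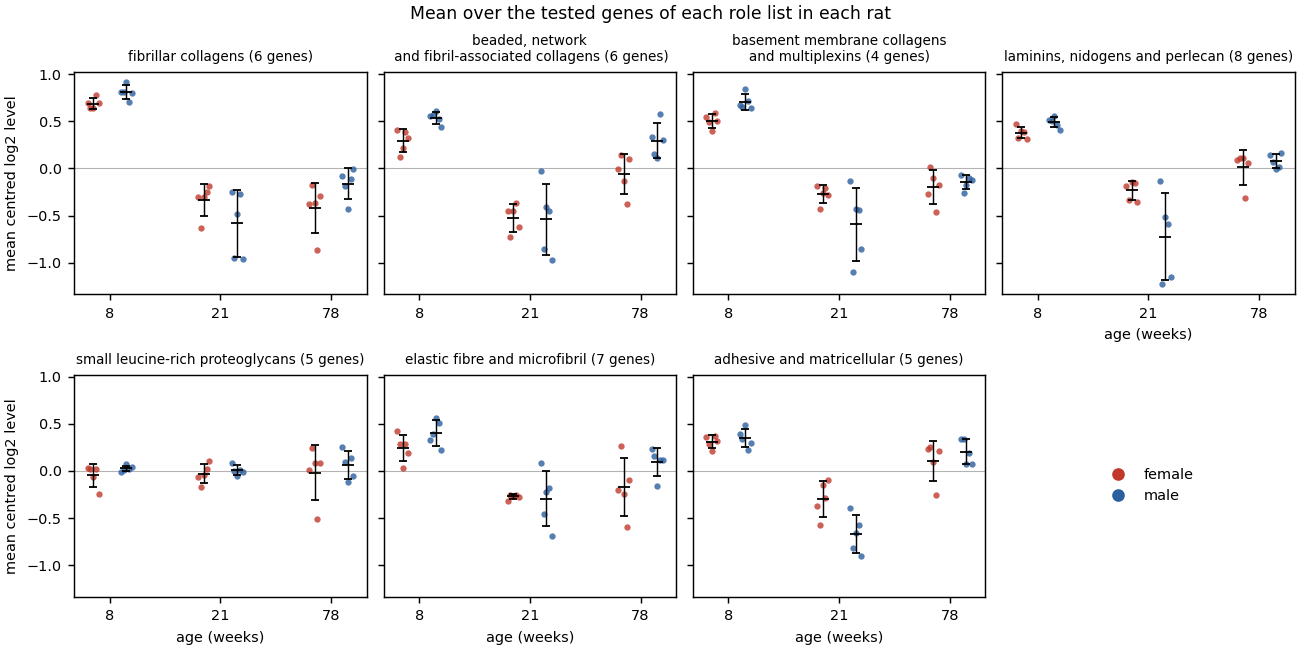
Mean level over the tested genes of each of 7 role lists in each heart (y axis, log2, each gene centred on its mean over all 30 hearts) at 8, 21 and 78 weeks (x axis); points are rats, red for females and blue for males, and bars show mean ± SD of 5 rats. The fibrillar list lay between 0.64 and 0.91 at 8 weeks and at or below 0.00 later, and the small proteoglycan list had medians of 0.02, -0.01 and 0.08.

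Of the beaded, network and fibril-associated collagens, 4 of 6 tested genes were lower and 1 was higher at 78 weeks. The chains of type VI collagen, which forms beaded filaments around cells, were all lower: Col6a3 lay at -0.06 to 0.30 (median 0.20) at 8 weeks and at -1.28 to 0.39 (median -0.52) at 78 weeks (-0.70 ± 0.12 SE, adjusted p = 8.1e-05). Col6a2 lay at -0.06 to 0.73 (median 0.40) at 8 weeks and at -0.86 to 0.38 (median -0.18) at 78 weeks (-0.69 ± 0.12 SE, adjusted p = 0.000121). Col6a1 lay at 3.25 to 4.04 (median 3.76) at 8 weeks and at 3.03 to 3.99 (median 3.25) at 78 weeks (-0.38 ± 0.12 SE, adjusted p = 0.0195) and no longer passed without the mismatched pair of arrays or after normexp. Neither Col6a1 nor Col6a2 passed with the mean of all probes of a gene. The ranges of 8 and 78 weeks overlapped for all 3 chains. Col16a1, a fibril-associated collagen, lay at 3.19 to 3.55 (median 3.39) at 8 weeks and at 2.35 to 3.13 (median 2.79) at 78 weeks without overlap (-0.60 ± 0.09 SE, adjusted p = 1.93e-05). Col8a1, a short-chain network collagen of vessels, moved the other way: it lay at 0.94 to 1.71 (median 1.36) at 8 weeks, -0.57 to 1.20 (median 0.09) at 21 weeks and 0.51 to 2.62 (median 2.06) at 78 weeks (0.59 ± 0.19 SE, adjusted p = 0.0242). Its adjusted p was 0.0502 without female replicate 5 of 78 weeks and 0.213 after normexp (0.26). Col14a1 differed by 0.01, with 8 of 10 arrays well above background at 8 weeks, 3 of 10 at 21 weeks and 6 of 10 at 78 weeks.

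Elastin was the member with the lowest estimate. Eln lay at -0.63 to 0.33 (median 0.02) at 8 weeks, -4.25 to -1.57 (median -2.14) at 21 weeks and -3.32 to -0.56 (median -1.62) at 78 weeks, and the 1 heart of 78 weeks inside the range of 8 weeks was female replicate 2, one of the mismatched arrays. The difference was -1.73 ± 0.31 SE, adjusted p = 0.000127. Eln was well above background on 10 arrays of 8 weeks, 8 of 21 weeks and 9 of 78 weeks, so background limits its size. With slide as a fixed term in limma the difference of Eln was -1.21 and did not pass (adjusted p = 0.233). Fbn1 (fibrillin-1), the main microfibril protein, lay at 4.88 to 5.51 (median 5.14), 2.75 to 4.21 (median 3.69) and 3.41 to 5.13 (median 4.64) at the 3 ages, lowest at 21 weeks (-0.53 ± 0.16 SE, adjusted p = 0.0225 for 78 against 8 weeks; not past the threshold after normexp). The other 5 genes of the elastic fibre list did not pass. Fbln1 lay at 1.94 to 2.40 (median 2.18) and at 1.76 to 3.10 (median 2.47) (0.23 ± 0.10 SE, adjusted p = 0.115). Mfap4 and Mfap5, both microfibril-associated, differed by -0.17 and -0.15, and the fibulins Fbln2 and Fbln5 by 0.03 and -0.17.

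Sparc, a secreted glycoprotein that binds collagen and takes part in its processing, was the only adhesive or matricellular gene of the 5 tested that was lower at 78 weeks. Its levels were 7.48 to 7.87 (median 7.64) at 8 weeks, 6.96 to 7.51 (median 7.23) at 21 weeks and 6.44 to 6.79 (median 6.64) at 78 weeks. The 78-week hearts were below all hearts of 21 weeks and of 8 weeks (-1.03 ± 0.05 SE, adjusted p = 1.74e-14 against 8 weeks and -0.63 ± 0.06 SE, adjusted p = 5.4e-10 against 21 weeks). Fn1 (fibronectin) lay at 4.15 to 4.61 (median 4.23) at 8 weeks, 2.34 to 3.93 (median 3.26) at 21 weeks and 3.13 to 4.46 (median 4.19) at 78 weeks, and its difference between 78 and 8 weeks had an interval of -0.43 to 0.14. Postn (periostin), Thbs2 and Vcan (versican) differed by 0.19, 0.07 and 0.06 and did not pass. Tnc and Thbs1, with 3 and 0 arrays well above background, were not tested, nor were Col11a1 (2 arrays) and Col12a1 (0 arrays).

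Genes that process collagen showed lower levels beside the collagens. Of 20 genes in the list, 19 were tested. At 78 weeks 12 were lower and 1 was higher than at 8 weeks, against 9.78% and 9.52% of all probes. Lox, which cross-links collagen and elastin, differed by -1.51 ± 0.13 SE, adjusted p = 5.51e-10 and Loxl2 by -0.95 ± 0.12 SE, adjusted p = 1.07e-06. Serpinh1, the collagen chaperone, differed by -0.66 ± 0.08 SE, adjusted p = 3.17e-07, Plod1, a lysyl hydroxylase, by -0.58 ± 0.06 SE, adjusted p = 5.25e-08 and Pcolce, an enhancer of propeptide removal, by -0.46 ± 0.07 SE, adjusted p = 7.45e-06. Plod2, another lysyl hydroxylase, was the 1 gene that was higher (0.47 ± 0.13 SE, adjusted p = 0.00979). Of 18 matrix receptors, 14 were tested, and Itgb1 and Sdc4 alone passed, both lower (-0.20 and -0.20).

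Markers of other cell properties were read beside these differences, and their part in them was not tested. Over all probes, 9.78% were lower and 9.52% were higher at 78 than at 8 weeks. All 6 cycling-cell markers were lower at 78 than at 8 weeks (differences of -1.31 to -0.93), and their summed linear signal was 2.36 to 5.39 times the 75th percentile at 8 weeks and 0.923 to 1.94 at 78 weeks. Of 7 endothelial markers, 3 were lower (Cdh5, Tie1 and Emcn, by -0.73, -0.71 and -0.49) and 4 did not pass, with a summed signal of 123 to 172 at 8 weeks and 114 to 142 at 78 weeks. Of 8 fibroblast markers outside the 46 genes, 7 were tested, Cd248 was lower, Pi16 was higher and 5 did not pass, and the summed signal was 510 to 666 and 587 to 763. Thy1 was the 1 marker of these 3 lists below the filter. Of 5 tested smooth muscle and pericyte markers 2 were lower and 2 higher, of 5 tested leukocyte markers 1 was higher, of 3 erythroid markers 1 was higher, and of 8 cardiomyocyte markers 1 was lower and 1 higher.

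At 21 weeks 34 of the 41 genes were lower and 1 was higher than at 8 weeks, where 25.5% of all probes were lower and 32.9% were higher. After normexp 24 were lower and 0 were higher, where 7.8% and 9.42% of all probes were. Without that correction all 6 fibrillar, 6 beaded and associated, 4 basement membrane and 8 laminin-group genes were lower. Their medians were -1.31, -0.96, -0.99 and -0.99, against 0.07 over all probes. All 5 tested adhesive and matricellular genes and 3 of 7 elastic fibre genes were lower too. Of the 5 small proteoglycans, Bgn (-0.22) and Fmod (-0.28) were lower, 1 was higher and 2 did not pass (median 0.03). Col14a1 and Lama4, well above background on 3 and 2 of the 10 arrays of 21 weeks, turned to 0.28 and 0.17 after normexp. Brightest probes gave all of these values. The 5′ probe of Col4a1 on the same strand was higher at 21 weeks, by 1.08 (adjusted p = 4.83e-06), against -1.45 for the brightest. Eln, Col5a3, Col3a1 and Fbn1 had the lowest estimates (-2.37, -1.79, -1.56 and -1.52), though Eln was well above background on 8 of the 10 arrays of 21 weeks. In 20 genes no heart of 21 weeks reached the range of 8 weeks (6.04% of all probes were lower without overlap). Dcn was the 1 gene that was higher, by 0.33 ± 0.07 SE, adjusted p = 0.000377, but its difference was 0.00 after quantile normalization and -0.13 after normexp. In males alone 33 genes were lower and in females alone 25 were (25.4% and 10.3% of all probes), and no gene passed the test of the difference between the sexes. The same arrays showed 7 of 8 cardiomyocyte markers higher and 1, Ryr2, lower. Of the endothelial markers 5 of 7 were lower and 1 higher (median -0.51), and of the cycling-cell markers 5 of 6 were lower (median -0.85). Of 7 tested fibroblast markers 4 were higher and 2 lower, all 3 erythroid markers were higher, 2 of 5 leukocyte markers were higher, and of 5 smooth muscle and pericyte markers 2 were lower and 1 higher. The part of these cells in the matrix differences was not tested.

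Between 21 and 78 weeks 18 of the 41 genes were higher and 3 were lower, where 24.8% of all probes were higher and 32% were lower. After normexp 4 were higher (Col8a1, Vcan, Postn and Hspg2) and 0 were lower, where 6.78% of all probes passed. Of the 6 named next, Col8a1 was higher, Fbn1 was lower and the other 4 did not pass between 8 and 78 weeks. Col8a1 differed by 1.90, Vcan by 1.21, Fn1 by 1.02, Postn by 1.01, Fbn1 by 0.99 and Hspg2 by 0.93. Lama4 is given no size, since 2 of its 10 arrays of 21 weeks were well above background. The 3 lower genes were Sparc (-0.63), Lum (-0.35) and Dcn (-0.24, but 0.08 after quantile normalization). Hearts of 21 and 78 weeks did not overlap for Bgn and Vcan, both higher, and Sparc, lower (4.02% and 3.04% of all probes). Within the second scan day, which held 4 arrays of 78 weeks and 10 of 21 weeks, 13 genes were higher and 1 was lower, where 12.2% of all probes were higher and 14.5% were lower. Of the cardiomyocyte markers 5 of 8 were lower and 1 higher, of the endothelial markers 2 of 7 lower and 3 higher, and of the cycling-cell markers 3 of 6 lower and 1 higher. Fibroblast markers were lower in 2 of 7 and higher in 1. These comparisons share the 21-week arrays with the comparison against 8 weeks.

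Females and males were compared within each age. In 8-week hearts Col3a1 and Col8a1 were lower in females than in males, as were 0.269% of all probes, and no gene of the 41 was higher (0.0961% of all probes). Col3a1 was 7.44, 7.46, 7.49, 7.54 and 7.64 in the 5 females and 7.76, 7.84, 7.84, 7.94 and 8.01 in the 5 males. Every female was below every male (-0.36 ± 0.06 SE, adjusted p = 0.0211; exact permutation p = 0.00794, two-sided, the smallest that 5 against 5 allows). Col8a1 was 0.94, 1.06, 1.07, 1.08 and 1.39 in females and 1.33, 1.58, 1.59, 1.64 and 1.71 in males, with 1 female inside the male range (-0.46 ± 0.09 SE, adjusted p = 0.0421; exact permutation p = 0.0159). Both calls are sensitive: leaving out single rats left 0 to 2 genes, and Col3a1 was lost in 6 and Col8a1 in 8 of 10 such fits. Neither gene passed with no filter on background, after normexp or by an ordinary t-test with the same adjustment. Nor did either pass in the first table row of each gene name, which for Col3a1 is an opposite-strand probe. The count of genes lower in females was 3 after quantile normalization and 3 in the table rows of the brightest probes. It was 2 with slide as a fixed term and 2 with the mean of all probes of a gene.

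The direction was shared by most of the 41 genes at 8 weeks. In 32 genes the female mean was below the male mean, as in 44.6% of all probes. At an unadjusted p under 0.05, 14 genes were lower in females and 1, Thbs2, was higher, where 3.12% and 4.27% of all probes were. Besides Col3a1, the sexes did not overlap for Sparc, Col15a1 and Col18a1, all lower in females (0.827% of all probes). Sparc was 7.48, 7.49, 7.52, 7.57 and 7.60 in females and 7.67, 7.74, 7.81, 7.82 and 7.87 in males (-0.25 ± 0.06 SE, adjusted p = 0.11). Col18a1 was 1.31, 1.50, 1.67, 1.76 and 1.79 in females and 1.86, 1.87, 1.94, 1.97 and 2.09 in males (-0.34 ± 0.09 SE, adjusted p = 0.205). Col15a1 was 4.43, 4.54, 4.59, 4.63 and 4.63 in females and 4.70, 4.70, 4.70, 4.71 and 4.77 in males (-0.15 ± 0.05 SE, adjusted p = 0.426). These 3 genes did not pass the adjusted threshold at their brightest probe, but the other same-strand probe of Col18a1 did (-0.37, adjusted p = 0.0288). Col1a1 differed by 0.02 at its brightest probe, and by -0.48, -0.41 and -0.32 at its other 3 probes, the last on the opposite strand. Adjusted p of these 3 lay between 0.0653 and 0.114.

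**Figure D4:**
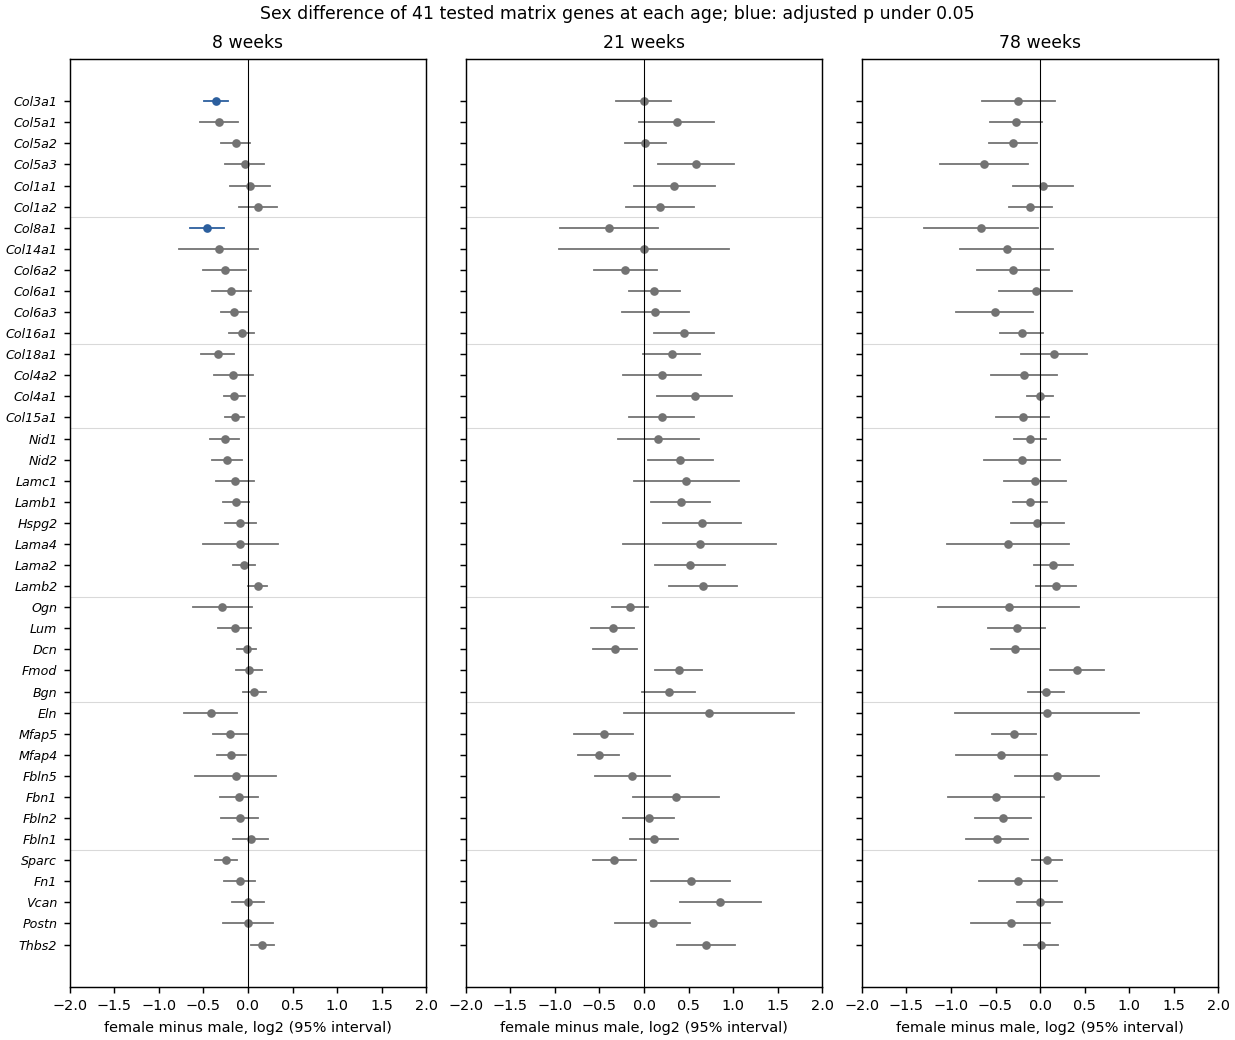
Female minus male difference (log2, x axis) of the 41 tested genes at 8, 21 and 78 weeks, ordered by role and by the 8-week value; points are limma estimates from 5 rats a sex and lines their 95% intervals. At 8 weeks 32 points lie below 0, and Col3a1 and Col8a1 (blue) passed the threshold.

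Cycling-cell markers differed between the sexes at 8 weeks too, and their part in the difference was not tested. All 6 were lower in females and 4 passed the threshold, as did 0.269% of all probes in that direction. Ccna2 differed by -0.98 ± 0.16 SE, adjusted p = 0.0191 and Mki67 by -0.83 ± 0.16 SE, adjusted p = 0.0421. The summed signal of the 6 markers was 2.36 to 2.88 in females and 3.93 to 5.39 in males. Loxl2 was lower in females (-0.41 ± 0.07 SE, adjusted p = 0.021), the 1 gene of 19 collagen-processing genes that passed. No fibroblast, endothelial, smooth muscle, leukocyte, erythroid or cardiomyocyte marker passed, and the summed fibroblast signal was 581 to 666 in females and 510 to 662 in males. Array position followed sex on every slide, so position and sex cannot be told apart.

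In 21-week hearts no gene of the 41 passed (20 probes of all were higher and 21 lower in females, 0.197% together). At an unadjusted p under 0.05, 12 genes were higher in females and 5 were lower, where 13% and 10.1% of all probes were. Vcan was -0.52, -0.45, -0.44, -0.26 and 0.03 in females and -1.78, -1.52, -1.19, -0.84 and -0.60 in males, without overlap (0.86 ± 0.21 SE, adjusted p = 0.0999). Fmod, also without overlap, was 3.73, 3.82, 3.89, 3.89 and 4.36 in females and 3.39, 3.44, 3.58, 3.64 and 3.70 in males (0.39 ± 0.12 SE, adjusted p = 0.122). Sparc, Mfap4 and Dcn were lower in females without overlap. Mfap4 was 1.61, 1.62, 1.65, 1.68 and 1.71 in females and 1.95, 2.01, 2.14, 2.23 and 2.49 in males (-0.51 ± 0.11 SE, adjusted p = 0.0843). Sparc was 6.96, 7.08, 7.13, 7.15 and 7.15 and 7.31, 7.41, 7.42, 7.48 and 7.51 (-0.33 ± 0.11 SE, adjusted p = 0.13). Dcn was 6.48, 6.49, 6.55, 6.59 and 6.69 and 6.74, 6.75, 6.89, 7.01 and 7.06 (-0.33 ± 0.11 SE, adjusted p = 0.137). These 5 genes make 3 lower and 2 higher without overlap, against 2.07% and 3.78% of all probes. Without male replicate 1, 10 genes passed, 9 of them higher in females, and 7.86% of all probes passed with them. With replicate number as a block, 9 genes passed (7 higher and 2 lower in females), where 9.36% of all probes did. Not every replicate number correlated best with itself at this age.

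At 78 weeks no gene of the 41 passed with all 10 arrays, as no probe of the array did, or without the mismatched pair, where 14 of all probes did (0.0673%). With all 10 arrays, 31 genes had a lower mean in females (43.7% of all probes). At an unadjusted p under 0.05, 8 were lower and 1, Fmod, was higher, where 3.27% and 3.59% of all probes were. With all 10 arrays no gene separated the sexes without overlap, and this count was not made without the mismatched pair. Col8a1 was 0.51, 1.49, 1.86, 2.05 and 2.07 in females and 1.50, 2.35, 2.37, 2.45 and 2.62 in males (-0.66 ± 0.29 SE, adjusted p = 0.698). The male value of 1.50 came from the mismatched array, replicate 3, and the other males lay above every female. Without the mismatched pair the difference of Col8a1 was -0.97. That of Fbln2, the gene with the smallest p, was -0.62 (adjusted p = 0.117). No gene passed limma's test of whether its sex difference changed between ages with all 30 arrays, where 0.00481%, 0.0384% and 0.00481% of all probes passed for 21 against 8, 78 against 21 and 78 against 8 weeks. At an unadjusted p under 0.05, the female minus male difference was lower in 1 gene and higher in 15 for 21 against 8 weeks, 17 and 1 for 78 against 21 weeks, and 2 and 3 for 78 against 8 weeks, where 17.6%, 22.3% and 3.43% of all probes passed in either direction. Without the mismatched pair, 7 genes passed for 78 against 21 weeks (Col5a3, Col16a1, Fbn1, Fbln1, Fbln2, Thbs2 and Vcan, -1.46 to -0.67), where 1.14% of all probes did.

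Of the 46 genes, 24 had more than 1 tested probe, and the other 32 probes show how far a gene's value rests on its probe. Among the 21 genes that differed between 78 and 8 weeks, the other 21 probes had the same sign in all but 5, and 4 of those 5 lie on the strand opposite to the brightest probe (Col3a1, Col6a1, Col6a2 and Sparc). The fifth is the 5′ probe of Col4a1. Other opposite-strand probes kept the sign: those of Col1a1 (-1.33), Col6a2 (-0.50), Col15a1 (-0.38), Col6a1 (-0.06) and Lama2 (-0.002). The opposite-strand Col3a1 probe, printed here because it is the first row under that name in the authors' tables, lies within chr9:44318109-44318879 (minus strand, rn3).
Col3a1: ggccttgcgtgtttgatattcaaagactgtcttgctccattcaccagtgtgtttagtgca
It differed by 0.46 between 78 and 8 weeks (adjusted p = 0.0113) and, in the table values, by 0.09 between females and males of 8 weeks, where the row of the brightest probe gave -0.38.

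**Figure D5:**
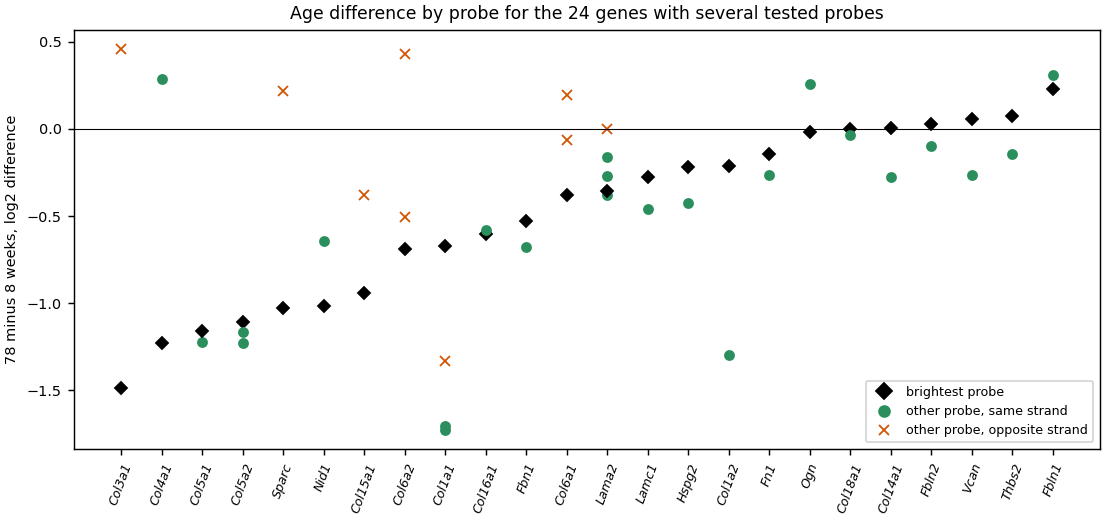
Difference between 78 and 8 weeks (log2, y axis) of each tested probe of the 24 genes with several (x axis); black diamonds are the brightest probes, green circles other probes of the same strand and orange crosses probes of the opposite strand, from the positions in the scanner files. The probes above 0 for Col3a1, Sparc, Col6a1 and Col6a2 are crosses.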

How the data were processed

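RNA of 30 whole hearts was hybridised to 1-colour Agilent rat arrays, and the authors deposited Agilent Feature Extraction files of spot intensity and, for each age, a table of intensity relative to each array's 75th percentile. Rows of these tables matched the scanner values within 0.005 (log2) in 99.4% of cases, after a constant shift per array. Column names of the 21-week males gave only their group. Flags on the scanner files are deposited as 0 or 1 (other values). From the deposited intensities, the background-subtracted processed signal was taken to log2, spots of a probe were averaged, and the array's 75th percentile was subtracted. Control spots were left out. Probes well above background on at least 15 of 30 arrays were tested (20809 probes). No probe of the 46 genes was saturated. The number of arrays limits the precision.

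The sexes were compared within an age (10 arrays) and the ages over all 30 arrays with slide as a random block (correlation 0.0398), with limma 3.58.1 in R 4.3.3, moderated with an intensity trend and Benjamini-Hochberg adjustment over all probes tested, at a threshold of 0.05. The fits were also run on simulated data with independent noise. Those data held no slide, batch or dim-array differences, so that run does not bear on such differences. Single genes were also tested by two-sided exact permutation. P-values rest on the spread between rats within groups, pooled over the 10 arrays of an age for the sexes and over all 30 arrays for the ages. They do not cover differences between batches of different age. Any of the 46 genes could be named, and values of single rats were given for up to 4 genes of each role with the smallest p between 78 and 8 weeks, for Col1a1, Col3a1, Col4a1, Lamb2, Dcn, Lum, Fn1 and Sparc, and for genes that passed or did not overlap between the sexes. The members and lists were chosen with earlier results of these data known. Not every replicate number paired the sexes at 8 and 21 weeks (correlations of same-numbered deviations -0.18 to 0.21 and -0.10 to 0.42). At 78 weeks all 5 correlations were above 0.1 (0.15 to 0.33), and the block changed no call there. Alternatives were no filter, quantile normalization, normexp (offset 50), the mean of all probes of a gene and slide or replicate as a block. Others were an ordinary t-test with the same adjustment, the authors' tables and leaving out arrays. The study itself used ANOVA at p under 0.05 without such an adjustment.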

Additional observations from a re-analysis of the deposited data

Results flagged for a closer look

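In 20 of 198 groups of 5 rats, 1 rat lay apart from the other 4 by more than Dixon's 95% value (0.710), which chance gives in about 1 in 20 groups. All values are levels (log2), followed by the nearest other rat of the group. Female replicate 4 of 78 weeks accounts for 5 of them: it was lowest for Col1a1 (5.40, nearest 5.83), Fn1 (3.13, nearest 4.09), Dcn (5.99, nearest 6.40) and Nid2 (-1.02, nearest -0.16), and highest for Col6a1 (3.99, nearest 3.26). Male replicate 3 of 78 weeks, one of the mismatched arrays, was lowest for Col5a2 (2.43, nearest 2.90) and Col8a1 (1.50, nearest 2.35). Male replicate 4 of 78 weeks was highest for Col6a1 (3.93, nearest 3.36) and lowest for Eln (-3.32, nearest -1.80). Thbs2 was highest in male replicate 2 of 78 weeks (4.31, nearest 4.05), and Col4a1 in male replicate 5 (4.20, nearest 4.17).

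At 21 weeks female replicate 2 was lowest for Col4a1 (3.97, nearest 4.24) and Col15a1 (3.49, nearest 3.78), and female replicate 5 was highest for Fmod (4.36, nearest 3.89) and lowest for Lamb2 (4.85, nearest 5.27). At 8 weeks female replicate 4 was highest for Fn1 (4.45, nearest 4.22) and lowest for Lamb2 (5.20, nearest 5.31). Female replicate 2 was lowest for Col6a1 (3.25, nearest 3.65), female replicate 1 highest for Fmod (4.18, nearest 4.03) and male replicate 3 highest for Col15a1 (4.77, nearest 4.71).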

How the results depend on the processing

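The 2 genes that differed between the sexes at 8 weeks fell to 0 with no filter on background, after normexp and with a replicate block. They also fell to 0 by an ordinary t-test with the same adjustment and in the first table row of each gene name. At 21 weeks the replicate block raised the count from 0 to 9 (7 higher, 2 lower in females), where 9.36% of all probes passed, though not every replicate number correlated best with itself at that age. For 21 against 8 weeks, 35 genes became 24 after normexp (17.2% of all probes). Between 78 and 21 weeks 21 genes became 4 after normexp (6.78% of all probes), and between 78 and 8 weeks 21 became 11 with slide as a fixed block. Without the mismatched pair of 78-week arrays, 7 genes had a sex difference that changed between 21 and 78 weeks, against 0 with all arrays. The causes were not tested.

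Leaving out each array in turn gave 34 to 35 genes for 21 against 8 weeks, 20 to 27 for 78 against 21 weeks, 20 to 22 for 78 against 8 weeks, 0 to 2 for the sexes at 8 weeks, 0 to 10 at 21 weeks and 0 to 0 at 78 weeks. The change in the sex difference gave 0 to 13 (21 against 8 weeks), 0 to 19 (78 against 21 weeks) and 0 to 0 (78 against 8 weeks). The 10, 13 and 19 came without male replicate 1 of 21 weeks, where 7.86%, 8.18% and 14.5% of all probes passed. The 78 against 21 weeks count was 5 without male replicate 4 of 21 weeks, 5 without female replicate 2 of 21 weeks, 4 without male replicate 3 of 21 weeks and 5 without female replicate 2 of 78 weeks.

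Signs turned for 21 against 8 weeks in Dcn (-0.0028 after quantile normalization, -0.13 after normexp), Mfap5 (-0.21, quantile), Col14a1 (0.28, normexp) and Lama4 (0.17, normexp), for 78 against 21 weeks in Dcn (0.078, quantile) and Col4a1 (-0.28, mean of all probes), and for the sexes at 8 weeks in Col3a1 (0.089, first table row). Of the 21 genes that differed between 78 and 8 weeks, Col1a1, Col6a1, Col8a1, Lama2, Bgn and Fbn1 did not pass after normexp and Col6a1, Col6a2 and Lama2 did not with the mean of all probes, and each kept its sign. Genes near background at 21 weeks are limited by the dim arrays of that age.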
